A study of Homo sapiens with 3 samples.

Results

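The deposited table gives a coverage for each RefSeq transcript in 3 RNA-seq libraries of A2780, an ovarian cancer cell line, and for some transcripts the vector column is empty. These transcripts were selected on their measured values: the vector value was blank and the values of both miR-181a libraries were above 0. They number 204 of 29156 transcripts and belong to 135 of 18877 gene symbols. The 2 miR-181a libraries come from A2780 cells stably expressing exogenous miR-181a, named p181a#1 and p181a#2 and called pool 1 and pool 2 here. The labels describe them as polyclonal pools in one field and as clones in another, and each is 1 library. The comparison cells carried the empty pBABE vector and are also 1 library. No library of any group is replicated by a second culture that the labels identify, so the spread between pool 1 and pool 2 may be partly technical.

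Each value is the median of the read density along a transcript, so levels of different genes are on a per-length scale. Being above 0 in both pools and blank in the vector column chose the transcripts, and nothing is read from either property. A blank is not a 0 in this table, since 12.8% of the transcripts that have a vector value are listed at exactly 0 there. For the selected transcripts no fold against the vector library exists, and the authors' deposited ratio columns hold a division error in these rows.

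MicroRNAs are short RNAs that Argonaute proteins carry to messenger RNAs. The seed of the microRNA pairs with a matching stretch, usually in the 3 prime untranslated region, and the messenger RNA is then less translated or degraded. The title of the series asks for the targets of miR-181a, so the mature miR-181a-5p, made from the genes MIR181A1 and MIR181A2 on chromosomes 1 and 9, is shown with its seed, bases 2 to 8, in capitals. It is followed by the stretches of selected genes that hold the full complement of the seed and an A after it (8 bases, in capitals). The sequence of the microRNA is from RefSeq and the stretches are from GENCODE transcripts on GRCh37, the same assembly as hg19, read in the sense of the transcript.
hsa-miR-181a-5p: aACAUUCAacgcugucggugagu
GMPS, chr3:155661285-155661314, plus strand: cttgatattaaacgaagaagTGAATGTAaa
RPS6KA3, chrX:20172871-20172900, minus strand: ccagattgtggaacagctgtTGAATGTAat
SCAMP2, chr15:75136695-75136724, minus strand: cttactctcttcagactttcTGAATGTAca
STRN, chr2:37073319-37073348, minus strand: cattctagtgtattaaaatcTGAATGTAag
SSX2IP, chr1:85112729-85112758, minus strand: ttggaagtttagcctttactTGAATGTAta
HEATR3, chr16:50139021-50139050, plus strand: gaatactaaaaggttttcttTGAATGTAta

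All 6 stretches lie in annotated 3 prime untranslated regions. ZNF562, a zinc finger gene, was the seventh gene with such a match and held 4 of them in a region of 11142 bases. Of the 135 genes, 132 were found in the annotation and 131 had a 3 prime untranslated region, with a median length of 1325 bases. The complement of the seed alone, TGAATGT, was found on the sense strand of 31 of them (23.7%). The same letters were found in 2488 of 11833 other genes above 0 in both pools (21.0%), whose regions had a median length of 1276 bases. The match of 8 bases, TGAATGTA, which contains the shorter one, was found in 5.34% of the selected genes and 6.90% of the others. The letters GAATGTA, which overlap both, were found in 14.5% and 15.2%. A match describes the sequence and is not evidence of binding, and without a vector value the response of these genes to miR-181a was not measured.

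All 7 genes with the match of 8 bases had a mean of the pools between 10 and 100. GMPS, which makes guanosine monophosphate, had a coverage of 74.5 in pool 1 and 70.3 in pool 2. RPS6KA3, a kinase downstream of ERK, had 50.9 and 36.9, and SCAMP2, a carrier membrane protein of the secretory route, had 29.5 and 26.7. STRN, a scaffold protein of a phosphatase complex, had 24.3 and 16.2. SSX2IP, an adhesion and centrosome protein, had 17.8 and 15.4, and HEATR3, which takes part in ribosome assembly, had 15.9 and 13.0. In each of these 6 genes pool 1 was the higher pool, as it was for most transcripts in the table.

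The blank concerned whole genes. The vector value was missing for 308 transcripts of 203 genes, 1.06% of transcripts and 1.08% of genes, and 0 of these 203 genes had another transcript with a vector value. A planned comparison with other transcripts of the same genes therefore had no transcripts to use. Of the 308 blank transcripts 66.2% were above 0 in both pools, against 66.1% of the 28848 transcripts that have a vector value. The 104 blank transcripts left out comprised 98 at 0 in both pools, 1 above 0 in pool 1 only and 5 above 0 in pool 2 only. Just outside the selection, 2 transcripts of LGALS8, a galectin, had 0 in pool 1 and 1.12 in pool 2. A transcript of GPLD1, a phospholipase that releases anchored proteins, had 0 and 0.225. Both genes are also in the selection through other transcripts. Just inside, the lowest transcript of SYNPO, an actin-associated protein, had 0.0245 in pool 1 and 0.012 in pool 2. APOL3, an apolipoprotein L, had 0.114 and 0.023. All 204 accessions were of the messenger RNA type, as were 100% of those in the table, and the table holds no microRNA gene. The 132 annotated genes lay on chromosome X and on all but 1 of the autosomes, with 13 each on chromosomes 1 and 2 and 12 on chromosome 19.

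Coverage of the selected transcripts ran from 0.0245 to 1132 in pool 1 and from 0.012 to 766 in pool 2. Their median coverage was 15.9 in pool 1 and 12.2 in pool 2, against 16.6 in pool 1 and 12.8 in pool 2 for the 19064 other transcripts above 0 in both pools. The middle of the distribution ran from 6.004 to 34.3 in pool 1 (25th to 75th percentile) and from 4.56 to 25.1 in pool 2. By the mean of the pools, 15 transcripts stood at 100 or more, 109 between 10 and 100, 59 between 1 and 10 and 21 below 1. Those below 1 made up 10.3% of the selection and 7.86% of the other transcripts. Those at 100 or more made up 7.35% and 7.99%. Together the selected transcripts held 1.01% of the summed coverage of pool 1 and 0.95% of that of pool 2.

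**Figure D1:**
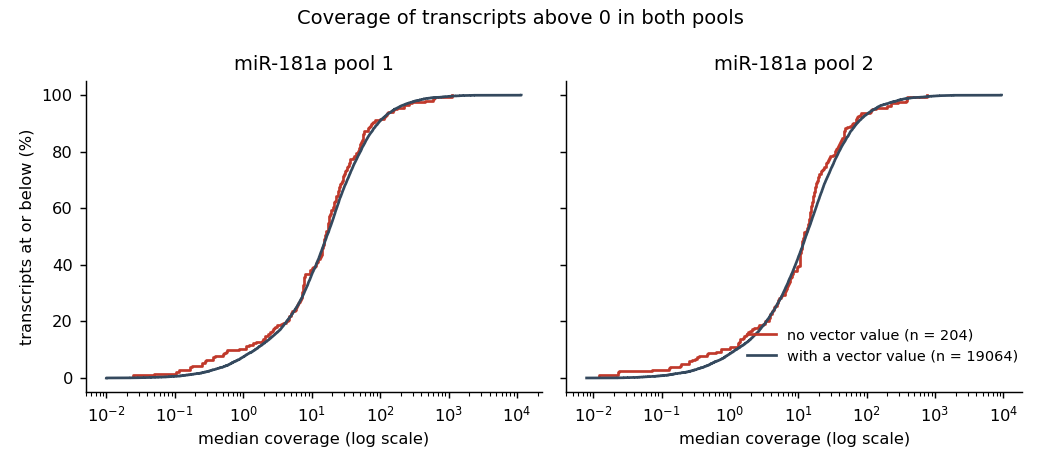
Cumulative share of transcripts (%) against median coverage on a log scale, in pool 1 (left) and pool 2 (right), for the 204 transcripts with no vector value (red) and the 19064 others above 0 in both pools (dark). The curves lie close together, with medians of 15.9 and 16.6 in pool 1 and 12.2 and 12.8 in pool 2, and the red curve is above the dark one below a coverage of 1.

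The most abundant genes served splicing, translation and protein folding. SNRPD2, a protein of the Sm ring around spliceosomal small nuclear RNAs (chromosome 19, 46190718 to 46195827, minus strand), had a coverage of 1132 in pool 1 and 766 in pool 2. Only 46 of the 18674 genes with a vector value were higher in pool 1 and 72 in pool 2. RPS14, a protein of the small ribosomal subunit (chromosome 5, 149822198 to 149829302, minus strand), had 623 and 394. CCT5, a subunit of the chaperonin that folds actin and tubulin (chromosome 5, 10250041 to 10266501, plus strand), had 459 and 396. These 3 genes were the highest of the selection in each pool.

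ARF3, a small GTPase of vesicle budding at the Golgi (chromosome 12, 49329506 to 49351270), had 289 in pool 1 and 197 in pool 2. ARMCX2, an armadillo repeat gene of the X chromosome (100910267 to 100914835), had 226 and 225. MAT2A, which makes S-adenosylmethionine, the methyl donor of the cell (chromosome 2, 85766291 to 85772404), had 174 and 139. On the scale of log2(coverage + 1), pool 1 minus pool 2 was 0.008 for ARMCX2, 0.55 for ARF3 and 0.32 for MAT2A. The median over the 19064 other transcripts above 0 in both pools was 0.31. MAT2A was thus near that median, ARF3 above it and ARMCX2 below it. LRPAP1, a chaperone of lipoprotein receptors, had 156 and 120. SELENOF, a selenoprotein of the endoplasmic reticulum whose older symbol SEP15 the table shows as a date, had 158 and 116. The other genes among the 15 highest were FKBP1A, PSMC3, FLNA, TMED1, FKBP9, SNRNP40 and GMPS, with 74.5 to 129 in pool 1 and 63.9 to 83.5 in pool 2.

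**Figure D2:**
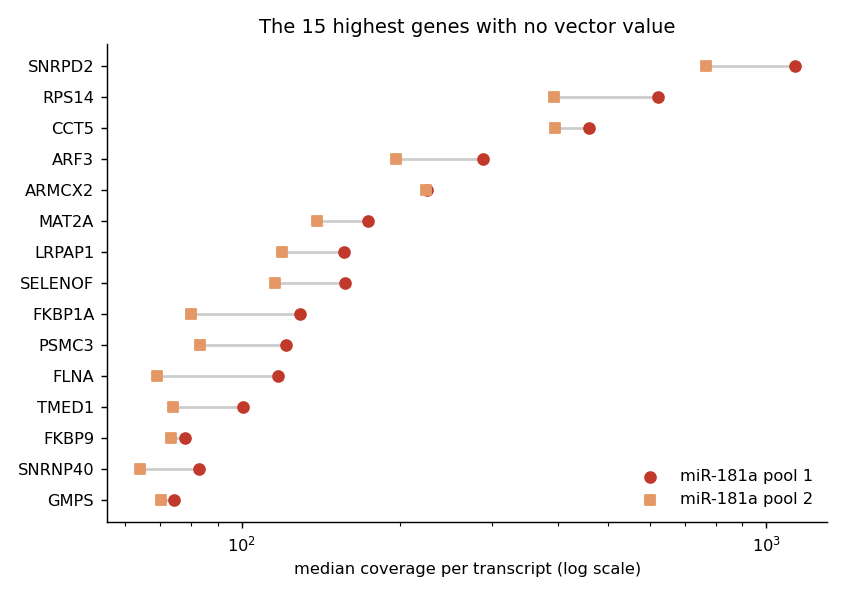
Median coverage on a log scale for the 15 genes with no vector value that had the highest mean of the pools, in pool 1 (circles) and pool 2 (squares), using the highest transcript of each gene. SNRPD2 leads with 1132 and 766, and pool 1 is the higher pool for each of the 15, by the least for ARMCX2 (226 and 225). Pool 1 is also the higher pool for 86.5% of all 19268 transcripts above 0 in both pools.

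Of the 135 genes 111 were placed in 13 groups by their known role. Protein folding held the highest group, with 4 genes and medians of 143 in pool 1 and 98.1 in pool 2. Beside CCT5 and SELENOF it contained FKBP1A, the prolyl isomerase that binds rapamycin, with 129 and 80.2, and FKBP9, an isomerase of the endoplasmic reticulum, with 78.0 and 73.4. Signalling genes were the lowest group, with 13 genes and medians of 6.40 and 4.22. Their range was wide, from RPS6KA3 to the motilin receptor gene MLNR, which had 0.2865 and 0.129.

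RNA processing comprised 6 genes with medians of 21.5 in pool 1 and 17.0 in pool 2. SNRNP40, a WD-repeat protein of the U5 small nuclear ribonucleoprotein, had 82.8 and 63.9. PCIF1, which methylates the cap-adjacent adenosine, had 24.0 and 14.5, and DBR1, which opens intron lariats, had 14.7 and 11.6. TRIT1, a transfer RNA modifying enzyme, had 19.02 and 19.54, slightly higher in pool 2. EIF2C4, now named AGO4, is an Argonaute that carries microRNAs (chromosome 1, 36273617 to 36323491, plus strand). It had 4.74 and 4.36, and its 3 prime untranslated region held 2 matches to TGAATGT.

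Protein breakdown was represented by 10 genes with medians of 22.6 in pool 1 and 15.3 in pool 2. PSMC3, an ATPase of the proteasome cap, had 122 and 83.5, and PSME3, the nuclear proteasome activator, had 56.0 and 39.9. BECN1, a core protein of autophagy, had 45.1 and 31.8. The annotated spans of BECN1 and PSME3 overlap on opposite strands of chromosome 17 (40962152 to 40985367 and 40976402 to 40995777). The protocol described does not mark strand, so reads in the shared stretch could not be assigned to either. Whether exons of the measured transcripts lie in that stretch was not checked. CTSC, a lysosomal protease, had 50.0 and 46.8. PSMB9, an interferon-inducible catalytic subunit of the immunoproteasome, had 3.79 and 1.41. The ubiquitin ligase gene MARCHF1, also shown as a date in the table, had 0.1685 and 0.3065.

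Vesicle traffic held 12 genes with medians of 36.3 in pool 1 and 32.2 in pool 2. RAB8A, a GTPase of transport to the plasma membrane, had 49.7 and 40.3, and RAB27A, a GTPase of secretory granules, had 14.02 and 11.2. DCTN5, a subunit of the dynactin complex that works with the dynein motor, had 41.8 and 37.7. VPS13B, a lipid transfer protein of the Golgi, was low at 4.94 and 3.91. GOLGA8B, a golgin, had 69.8 and 61.6, and belongs to a family of near-identical copies between which reads may be divided.

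Metabolic enzymes formed a group of 12 genes with medians of 32.4 in pool 1 and 19.8 in pool 2. After MAT2A and GMPS, NME3, a nucleoside diphosphate kinase, had 72.1 and 47.8, and LPCAT3, which remodels phospholipids, had 66.85 and 56.9. GPT2, the mitochondrial alanine aminotransferase, had 36.0 and 21.4. DHODH, an enzyme of pyrimidine synthesis, had 17.8 and 12.3, and COQ2, of coenzyme Q synthesis, had 15.8 and 10.9. All 12 were higher in pool 1, as were all 12 genes of vesicle traffic. Over the whole table, 86.5% of the 19268 transcripts above 0 in both pools were higher in pool 1.

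Genes of the cytoskeleton and of cilia numbered 11, with medians of 17.8 in pool 1 and 15.4 in pool 2. FLNA, the actin cross-linker filamin A (chromosome X, 153576892 to 153603002, minus strand), had 117 and 69.0. RTKN, an effector of the GTPase RhoA, had 66.83 and 43.98. KRT10, a keratin of differentiated epidermis, had 0.274 and 0.194, and SYNPO stood at 0.104 and 0.0735 in its highest transcript. The group thus ran from one of the 15 most abundant genes to transcripts next to 0.

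Chromosome segregation and DNA repair comprised 5 genes. ERCC2, the XPD helicase of TFIIH, had 34.3 in pool 1 and 25.3 in pool 2, and FANCE, of the Fanconi anaemia core complex, had 15.3 and 14.01. CENPC1, the centromere protein CENP-C, had 6.05 and 6.28, and SGOL2, which protects centromeric cohesin, had 5.19 and 4.62. ZNF828, now CHAMP1, which acts in chromosome alignment, was lower in pool 1 with 7.90, against 10.7 in pool 2. Glycosylation and lysosomal genes numbered 7, among them UAP1, an enzyme of nucleotide sugar synthesis, with 56.8 and 42.6, and PMM2, a phosphomannomutase, with 15.4 and 10.7.

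Regulators of transcription formed the largest group, with 15 genes and medians of 10.3 in pool 1 and 8.25 in pool 2. PHF10, a subunit of a SWI/SNF remodelling complex, had 54.3 and 46.6, and GATAD2B, of the NuRD complex, had 24.98 and 17.45. PHF21A, a reader of unmethylated histone H3, had 22.0 and 20.3. ONECUT2 and ATOH7, lineage transcription factors, were at 0.51 or less in each pool. A further 7 zinc finger genes had medians of 7.38 and 6.75, led by ZNF358 with 44.6 and 28.3.

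**Figure D3:**
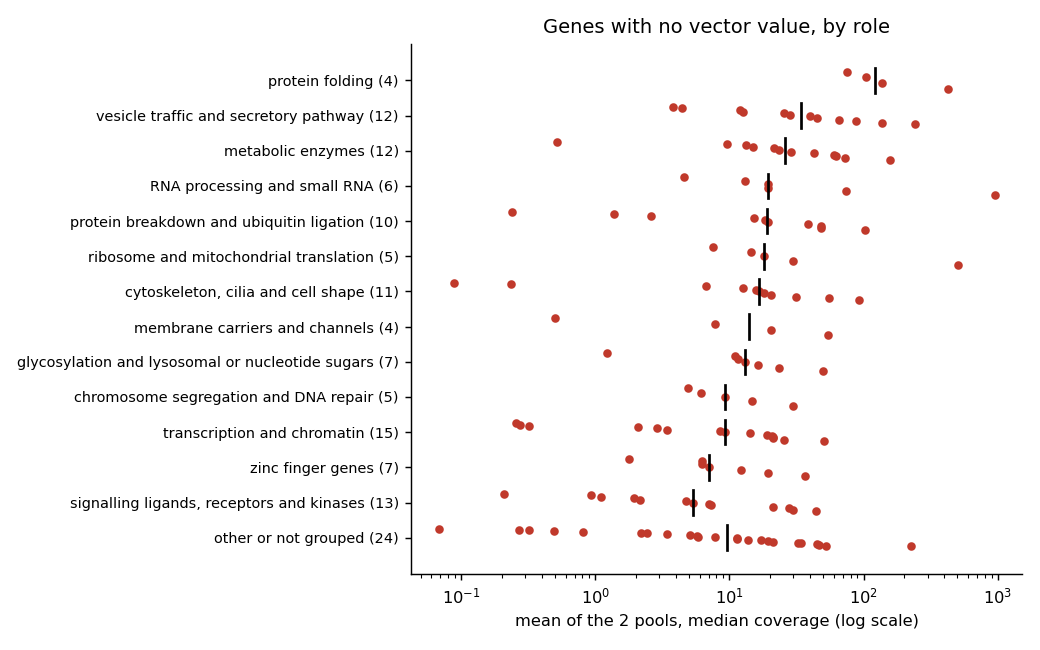
Mean of the pools, as median coverage on a log scale, for each of the 135 genes with no vector value (points), arranged by role with the number of genes in parentheses and the group median as a bar. Protein folding is the highest group and signalling the lowest, and most groups span genes above 10 and genes below 10.

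Signalling and surface genes included PDGFC, a ligand of the platelet-derived growth factor receptors, with 32.4 in pool 1 and 23.0 in pool 2. CXXC4, an inhibitor of WNT signalling, had 34.6 and 25.2, and SEMA4C, a semaphorin, had 25.2 and 17.2. BMPR1B, a type I receptor for bone morphogenetic proteins, had 7.10 and 7.41. CXCL16, a chemokine, had 2.76 and 1.55. Among carriers, SLC39A6, a zinc importer, had 56.8 and 51.7, SLC10A3 had 23.1 and 17.5, and SLC2A11, a sugar transporter, had 7.76 and 7.94. AQP7, a channel for water and glycerol, had 0.362 and 0.632.

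By symbol, the selection held 7 of the 507 ZNF genes in the table, 3 of 362 SLC genes, 5 of 324 FAM genes and 7 of 993 genes named as open reading frames. It held 1 of 88 genes of the RPL and RPS series, 1 of 55 keratins, 2 of 147 CCDC genes, 3 of 124 KIAA genes, 1 of 223 TMEM genes and 1 of 18 golgins. It held 0 of 375 olfactory receptor genes, 0 of 70 histone genes, 0 of 66 protocadherins, 0 of 18 HLA genes, 0 of 56 ANKRD genes, 0 of 55 USP genes, 0 of 36 TBC1D genes, 0 of 11 NBPF genes and 0 of 67 LOC or LINC loci. Over all symbols the selection held 135 of 18877. Each total counts every symbol in the table, also those at 0 in a pool, which the rule could not select. A count of 0 can thus follow from the rule. FAM, KIAA, TMEM, CCDC and open reading frame symbols are naming series and not families by descent. Their highest members were C11orf31, now the selenoprotein gene SELENOH, with 57.5 and 47.5, FAM159B with 48.5 and 41.5, TMEM179B with 46.8 and 46.0, CCDC58 with 25 and 13.97, and KIAA1310 with 22.9 and 18.7.

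Selected genes had up to 5 transcripts each, with 89 genes having 1 and 46 genes having 2 or more. Transcripts of the 46 genes were close to each other, with a median ratio of highest to lowest of 1.07 in pool 1 and 1.097 in pool 2. In 4 genes, RAB27A, PHF10, LGALS8 and APOL3, the selected transcripts were identical to the last digit in each pool. In 4 genes the ratio was at least 2 in both pools. SNRPD2 was one of them, and its second transcript had 268 in pool 1 and 289 in pool 2, so the ratio to the first was 4.22 and 2.65. CYTSB, a coiled-coil protein gene now named SPECC1, ran from 1.92 to 7.65 in pool 1 and from 1.39 to 5.69 in pool 2. CTSC ran from 24.4 to 50.0 and from 15.9 to 46.8, and SYNPO from 0.0245 to 0.104 and from 0.012 to 0.0735. The order of the pools depended on the transcript for SNRPD2, whose first transcript was higher in pool 1 and whose second was higher in pool 2. The same held for VPS13B, ZNF562, SGOL2, SLC2A11, PIK3IP1 and, by very small differences, ARMCX2.

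Pool 1 was higher than pool 2 in 175 of the 204 transcripts, lower in 28 and equal in 1, while 86.5% of all 19268 transcripts above 0 in both pools were higher in pool 1. The difference between the pools has 1 library on each side and no test. On the scale of log2(coverage + 1) the median of pool 1 minus pool 2 was 0.29 for the selected transcripts and 0.31 for the 19064 others, and the standard deviation over transcripts was 0.30 and 0.31. With the medians of the pools set equal, the median of the selected transcripts was -0.0043, so the sign of this median depends on the scaling of the pools. Across the 204 transcripts, which share the same 2 libraries and in part the same genes, Pearson's r of the log2 values was 0.99 and Spearman's rho 0.987.

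A difference of at least 1 log2 unit was found in 2 transcripts higher in pool 1 and 1 transcript higher in pool 2, against 1.12% and 0.187% of all 19268. Both of the higher ones belong to HES4, a transcription factor of the Notch pathway (chromosome 1, 934342 to 935552, minus strand). They had 26.0 and 25.7 in pool 1, against 11.2 and 12.3 in pool 2, and log2 differences of 1.14 and 1.00. The lower one was GPR39, a zinc-sensing receptor (chromosome 2, 133174378 to 133404155, plus strand), with 0.252 in pool 1, 1.62 in pool 2 and a log2 difference of -1.07. Genes were ranked by the difference of their highest transcript. After HES4, the largest positive differences were 0.99 for PSMB9, 0.88 for RHBDD3, 0.80 for CCDC58 and 0.76 for FLNA. The other PSMB9 transcript differed by 0.45 only, and a lower transcript each of CTSC and FKBP1A differed by 0.92. After GPR39, the largest negative ones were -0.39 for ZNF828, -0.30 for the muscle adaptor gene STAC3, -0.29 for EAF2, an elongation factor partner, and -0.26 for AQP7. Of these, GPR39 and AQP7 had a mean of the pools below 1 and PSMB9, STAC3 and EAF2 below 3.

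**Figure D4:**
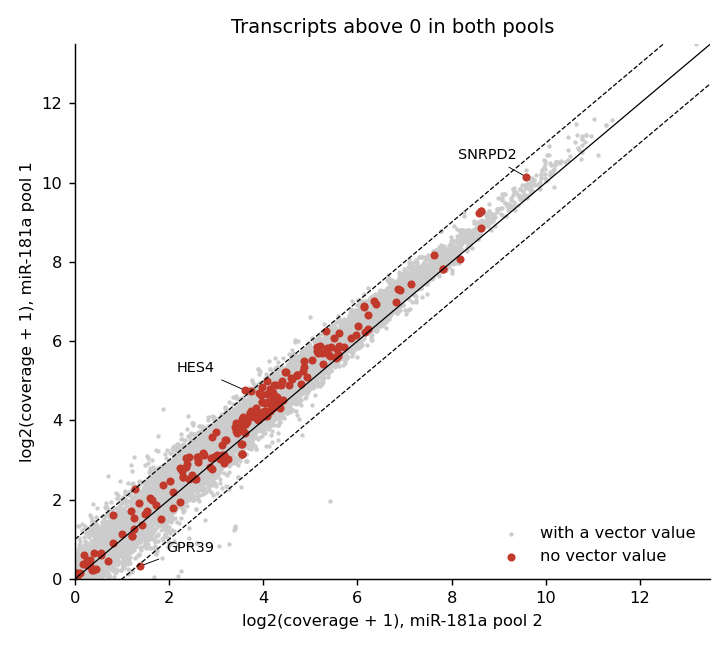
Log2(coverage + 1) in pool 1 against pool 2 for the 204 transcripts with no vector value (red) and the 19064 others above 0 in both pools (grey), with a line of equality and dashed lines 1 log2 unit away. The red points follow the grey ones, 175 of 204 lie above equality, and HES4 and GPR39 lie past the dashed lines.

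The vector library does have values for other subunits of some complexes to which selected genes belong. For 13 complexes or families, chosen after their values were seen, the selected gene was set beside the others, 90 genes in all. Complexes of other selected genes, such as PHF10 and GATAD2B, were not examined. By limma, fitted to 12552 genes with the Benjamini-Hochberg adjustment, 0 of the 89 genes tested rose and 2 fell in the pools relative to the vector library, against 1.00% and 21.7% of all genes tested. By a size of 1 log2 unit in both pools 0 were higher and 4 lower, against 2.53% and 27.3%. Their median log2 fold was 0.30, and that of all genes tested 0.07. The 89 genes were not matched to all genes tested for level. They include 31 genes of the small ribosomal subunit, at 116 to 3108 in pool 1. These contrasts are therefore not between like sets. The spread in this fit comes from the difference between pool 1 and pool 2 alone. That difference includes the shift between the pools as a whole, a median of 0.31 log2 units, since the libraries were not rescaled. A gene that does not pass is therefore not shown to be unchanged. The same spread is taken to hold for the single vector library. With library medians set equal 8 of the 89 rose, against 8.94% of all genes tested. With no variance trend 0 fell, against 19.2% of all genes tested. Neither count is thus independent of these settings. Coverage of a culture cannot tell fewer expressing cells from less RNA per cell.

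SNRPD2 was the highest of the 7 Sm core genes in each pool, at 1132 in pool 1 and 766 in pool 2. The other 6 (SNRPB, SNRPD1, SNRPD3, SNRPE, SNRPF and SNRPG) lay between 129 and 277 in pool 1, between 112 and 177 in pool 2 and between 119 and 193 in the vector library. None of these 6 passed the limma test. Its second transcript, at 268 and 289, was nearer to the range of the others.

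CCT5 ranked 2 of 8 chaperonin subunits in each pool, at 459 and 396, after CCT3 at 694 and 596. The other 7 lay between 177 and 694 in pool 1, 151 and 596 in pool 2 and 139 and 437 in the vector library. All 7 were above their vector value in both pools, and none passed the limma test. The share of all genes tested that lay above the vector library in both pools was not computed. Such counts, here and for the complexes below, are thus not read as results about a complex. On the log2 scale CCT3 was 0.56 above the vector library (SE 0.27) with a limma adjusted p of 0.296, and CCT7 was 0.55 above it (SE 0.26) with an adjusted p of 0.29. SNRNP40 ranked 6 of 8 among U5 proteins in each pool. The other 7, among them PRPF8 and SNRNP200, lay between 62.2 and 164 in pool 1, 53.0 and 131 in pool 2 and 42.0 and 94.2 in the vector library, and none passed the test.

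RPS14, at 623 and 394, ranked 20 and 21 of 32 genes of the small ribosomal subunit. The other 31 had medians of 878 in pool 1, 749 in pool 2 and 617 in the vector library, and none passed the limma test. PSMC3, at 122 and 83.5, ranked 3 of the 6 ATPases of the proteasome in each pool. The other 5 had medians of 94.6, 77.5 and 69.5 in pool 1, pool 2 and the vector library, and each was above its vector value in both pools without passing the test. PSME3, at 56.0 and 39.9, lay beside PSME1 with 57.9, 29.9 and 29.4 and PSME2 with 116, 84.0 and 84.2. PSMB9 lay between PSMB10, with 11.8, 9.40 and 9.83, and PSMB8, listed at 0 in both pools with 7.05 in the vector library.

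EIF2C4 was the lowest of the 4 Argonaute genes in each pool. EIF2C1 had 14.2 in pool 1, 9.73 in pool 2 and 7.50 in the vector library, EIF2C2, the slicing Argonaute AGO2, had 17.1, 9.20 and 12.05, and EIF2C3 had 6.32, 5.26 and 6.89. None of the 3 passed the limma test (adjusted p from 0.392 to 0.947). FLNA was the highest of 3 filamins, and FLNC had 5.72 and 2.96 in the pools and 13.47 in the vector library without passing the test. SGOL2 was below SGOL1, which had 12.9, 10.3 and 12.7.

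ERCC2 ranked 4 of 10 TFIIH genes in each pool. Among the other 9, CDK7, the kinase of TFIIH, fell to 14.2 in pool 1 and 10.2 in pool 2, against 113 in the vector library (log2 fold -3.12, SE 0.33, limma adjusted p = 0.0374), while 7 others were above their vector value in both pools. FANCE ranked 4 of 8 genes of the Fanconi anaemia core complex. FANCB fell to 3.10 and 2.297, against 15.6 in the vector library (log2 fold -2.17, SE 0.21, limma adjusted p = 0.0305), and the other 6 did not pass. In dynactin, DCTN5 ranked 5 of 9 in pool 1 and 3 of 9 in pool 2. DCTN1 had 73.6 and 54.2 in the pools and 227 in the vector library without passing the test (log2 fold -1.83, limma adjusted p = 0.0787).

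**Figure D5:**
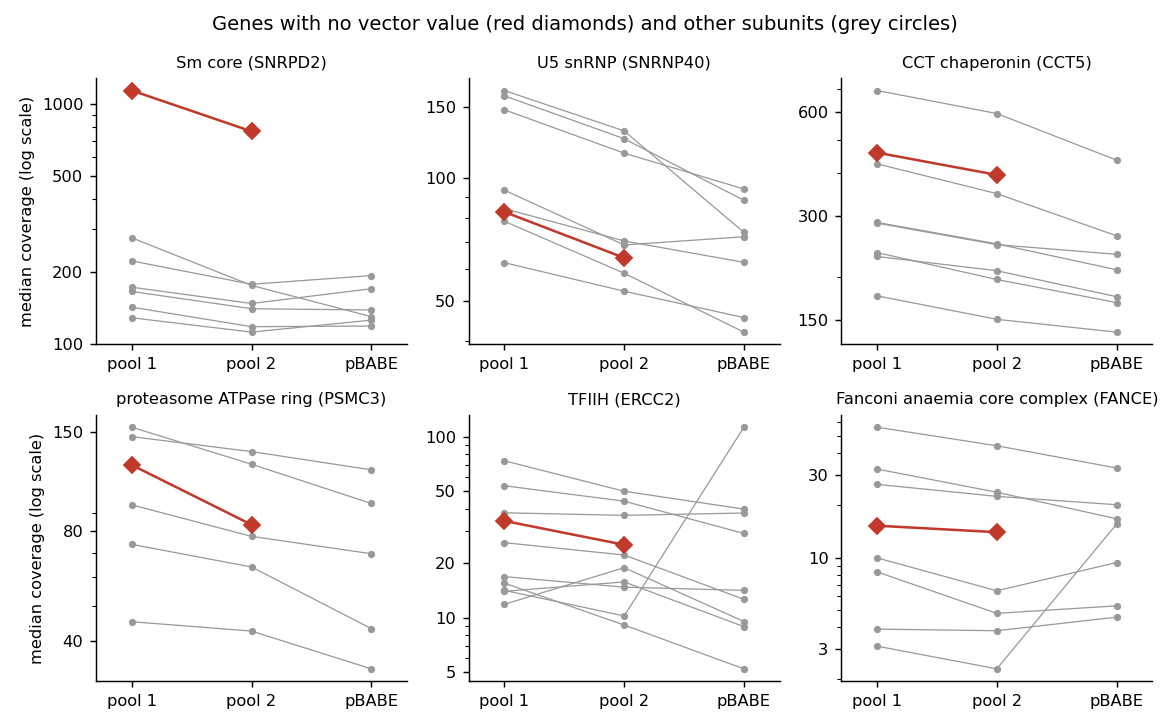
Median coverage on a log scale in pool 1, pool 2 and the pBABE vector library for the other subunits of 6 complexes (grey circles, 1 line per gene), with the gene that has no vector value as red diamonds in the pools. SNRPD2 lies above the Sm core range of 112 to 277, the other red genes lie within the range of their complex, and CDK7 in TFIIH and FANCB in the Fanconi anaemia complex stand far higher in the vector library than in the pools.

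Other values also set the vector library apart from the pools, and their part in the calls for CDK7 and FANCB was not tested. Of 8822 transcripts at 0 in both pools 5549 (62.9%) had a vector value above 0, with a median of 1.15 over the 8822. CDK7, FANCB, DCTN1 and FLNC are not among these, since each was above 0 in the pools. Coverage summed to 916314 in pool 1, 726165 in pool 2 and 798228 in the vector library. The sums of the pools include the 308 transcripts that are blank in the vector library, so the totals cover different sets.

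Of 9 markers for ovarian carcinoma and epithelium, 2 were above 0 in each pool and 6 in the vector library, and all 6 were higher in the vector library than in either pool. Their summed coverage was 15.8 in pool 1, 15.4 in pool 2 and 129.995 in the vector library. KRT8 had 13.4, 10.5 and 27.0, and KRT18 had 2.38, 4.91 and 13.9. PAX8, EPCAM, KRT19 and MUC16 were at 0 in both pools, with 4.71, 66.3, 17.4 and 0.649 in the vector library, and WT1, KRT7 and CDH1 were at 0 in all 3 libraries. The mesenchymal markers were higher in the pools, VIM with 2328 and 2007 and 1173 in the vector library, and CDH2 with 51.5 and 39.7 and 7.02 in the vector library.

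All 7 markers of other cell types were above 1 in the vector library, and 6 of them were higher there than in either pool. Among blood cell markers, PTPRC and CD3E were at 0 in both pools, against 5.79 and 17.4 in the vector library, and CD68 had 2.32 and 2.37 in the pools, against 4.96 in the vector library. Among endothelial markers, VWF was at 0 in both pools, against 36.6 in the vector library, and PECAM1 had 0 and 0.037, against 11.9. Of the fibroblast markers, COL1A1 had 0 and 0.706 in the pools, against 7.41 in the vector library. DCN was the exception, with 480 and 420 in the pools and 144 in the vector library.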

How the data were processed

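RNA was sequenced in 3 libraries after poly-A selection, per the labels' protocols. Reads were mapped to hg19 and the authors deposited, per transcript, a coverage signal that is the median of a windowed read density, per the labels' protocols. Log transformation and quantile normalization are also named there, but the deposited signal is linear and its medians differ between columns. An aligner is not given in the sources used here. Because the table holds no counts, the depth is unknown, and intervals that need it are left out.

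Symbols turned into dates (54 rows) were restored by RefSeq accession, which gives current names for 199 of the 204 selected transcripts. One transcript per gene, the highest by mean, was used for gene values. Levels were compared as log2(coverage + 1), with no rescaling of the libraries in the main settings. The fit used limma 3.58.1 in R 4.3.3 with eBayes and a trend, at an adjusted p of 0.05. It covered genes above the lowest 25% of those not at 0 throughout. It was run on simulated data in which the vector library was given the spread of the pools. That check therefore cannot show whether the real vector library varies as the pools do. Tables and figures used Python 3.11.15, pandas 2.3.3, scipy 1.17.1 and matplotlib 3.10.9. The 3 prime untranslated region is that of the canonical GENCODE transcript on GRCh37.

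Named genes are the 15 highest, the 5 nearest 0, the 5 farthest in each direction between pools and up to 3 of each symbol family. Other genes, the roles and the complexes were chosen after their values were seen. The selection and lists were chosen with earlier results of these data known.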

Additional observations from a re-analysis of the deposited data

How the results depend on the processing

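Of 40 alternatives, 23 left a value close to the main one, 16 moved it and 1 turned its sign. The count of 204 selected transcripts was 135 with 1 row per gene, and 205 to 209 when either pool alone decided. The median difference of pool 1 minus pool 2 (0.29) was 0.17 with a pseudocount of 10 and -0.0043 with pool medians set equal. The 2 transcripts higher in pool 1 became 5 with a pseudocount of 0.1 and 1 with 1 row per gene. They became 0 with a pseudocount of 10 and with medians set equal. At a threshold of 0.5 log2 units 46 were higher in pool 1. The 75th percentile of the difference was 0.490 for the selected transcripts and 0.487 for the 19064 others, both close to that threshold. Shares over all transcripts were not computed for these alternatives. The 1 higher in pool 2 became 0 with a pseudocount of 10. The share of genes with a seed match (23.7%) was 14.5% with the other 7-base match. Of other subunits, alternatives chosen after seeing the data, the 0 that rose became 1 with no filter and 8 with library medians set equal. The 2 that fell, CDK7 and FANCB, became 1 with no filter and 0 with no variance trend. Counted by size without either pool, where no test is possible, 0 to 4 were higher and 4 lower. Of all genes tested, 8.94% rose and 26% fell with library medians set equal. With no filter 1.35% rose and 29.7% fell, and with no variance trend 1.28% rose and 19.2% fell. The cause was not tested. The limma alternatives planned for other transcripts of the selected genes were not run because these genes have no transcript with a vector value. No paired analysis was possible because the vector group holds 1 library.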
